A study of Mus musculus with 6 samples.

Results

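The data described here are the mRNA levels of 9 genes of the insulin-PI3K pathway and of the FoxO transcription factors it controls, chosen by name. They are Foxo1, Foxo3 and Foxo4, the adaptors Irs1 and Irs2, the receptors Insr and Igf1r, the kinase Sgk1 and the repressor Bcl6, a gene that FoxO factors are known to activate. All 9 were found by gene symbol among the 50686 identifiers counted, and all 9 were among the 16729 genes that passed the filter on low counts. The cells were mouse induced pluripotent stem cells (iPSCs) reprogrammed from gingival fibroblasts, grown, by the study's methods, as embryoid bodies, treated with retinoic acid and attached to gelatin-coated dishes. In serum-free medium, 3 samples received intermittent compressive force (ICF), at 1.5 g per square centimetre and 0.23 Hz for 24 h, and 3 control samples were left unloaded. The labels name no strain, age or transgene, and they assign the samples of each group to donors 1 to 3, called replicates here. Serum was absent from both groups, and with it the insulin and growth factors that serum supplies.

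Insulin and the insulin-like growth factors signal through the receptors Insr and Igf1r, which phosphorylate the adaptor proteins Irs1 and Irs2. The adaptors recruit PI3K, a lipid kinase whose product activates the kinases AKT and SGK. These kinases phosphorylate the FoxO transcription factors and send them out of the nucleus, so that FoxO factors act when insulin signaling is low and raise genes of cell cycle arrest, antioxidant defence and fasting metabolism. In pluripotent cells FoxO1 is known to bind genes of the pluripotency network.

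Between 28711166 and 34194413 reads were counted on genes per library, and a member was covered by 112 to 9400 counts in a library. Of the nonzero counts of ICF replicate 3, 89.0% were divisible by 4, as were its counts of all 9 members, against 2 or 3 of the 9 in each other library. In that library 20802 genes had a count, against 24340 to 24889 in the others. Its counts were used as deposited, and whether each of them stands for 1 read is not known. The defining pluripotency genes were expressed in every library, with Pou5f1 at 741 to 883, Sox2 at 400 to 490 and Nanog at 305 to 382 CPM (library-size-scaled counts with TMM normalization). Of 8 pluripotency markers 0 passed the threshold used below, next to 7.85% of all tested genes. When the donor number was a block, 2 were lower, next to 29.9% of all genes called in either direction. The retinoic acid step was meant to give immature mesenchymal cells. Together, 8 markers of such cells summed to 359 to 413 CPM in the control and 425 to 438 CPM with ICF. Most of this sum came from Pdgfra and Vim, at control means of 178 and 163 CPM, and neither was called. Of the 8 markers 1 was called higher, Col1a1, next to 3.47% of all genes. The genes of a fibroblast list rose in part, with 2 of 5 tested members higher with ICF, next to 3.47% of all genes, and a summed level of 36.5 to 51.4 CPM in the control and 59.95 to 65.99 CPM with ICF. Its Lum had 0 to 4 counts in a library, and Dcn was at 6.44 to 10.4 CPM. Of 6 endoderm markers, 1 was called lower, next to 4.38% of all genes. This was Sox17, with a log2 fold change of -0.34 (adjusted p = 0.045, edgeR). The other 5 had log2 fold changes above 0, and 0 of them were called. With the donor number as a block, 2 endoderm markers were higher and 1 lower, next to 29.9% of all genes called in either direction. The part of these cells in the results below was not tested. In such bulk samples fewer cells of a type and less RNA per cell cannot be told apart.

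The promoters of the adaptor genes Irs1 and Irs2 are shown because they carry sequence elements through which insulin-regulated factors are known to act on Irs2. Both are RefSeq windows of 300 bases on GRCm38.p6, reaching from upstream of the start site into the first exon, read 5′ to 3′ on the reverse strand. Irs1 is at chr1:82291390-82291689 and Irs2 at chr8:11008880-11009179, and the Irs2 start site of RefSeq lies upstream of the gene's start in GENCODE. Capitals mark CACGTG, the E-box, and TGTTTTG, which reads CAAAACA on the other strand and is the core of the insulin response element that FoxO factors bind.

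Irs1: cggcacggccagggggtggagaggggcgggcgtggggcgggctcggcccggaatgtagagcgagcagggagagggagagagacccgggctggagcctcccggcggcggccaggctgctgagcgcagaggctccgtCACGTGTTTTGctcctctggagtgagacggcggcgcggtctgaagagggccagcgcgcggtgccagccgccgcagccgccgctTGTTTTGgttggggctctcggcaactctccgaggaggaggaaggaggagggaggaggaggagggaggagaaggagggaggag

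Irs2: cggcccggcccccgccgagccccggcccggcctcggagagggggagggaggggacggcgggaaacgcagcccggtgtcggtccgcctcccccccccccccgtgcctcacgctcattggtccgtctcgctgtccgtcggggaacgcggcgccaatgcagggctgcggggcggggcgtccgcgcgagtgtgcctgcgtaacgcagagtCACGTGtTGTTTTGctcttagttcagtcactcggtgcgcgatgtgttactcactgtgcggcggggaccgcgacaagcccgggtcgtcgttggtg

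In Irs1 the E-box began at position -115 from the start site and overlapped an insulin response element core that began at -111, with a second core at -32. In Irs2 the E-box began at -44 and a core followed at -37. Counted on both strands, CAAAACA was in 6.28% of 32851 promoter windows, and CACGTG in 7.15%. A window with both motifs starting within 20 bases of each other was rare, at 19 windows or 0.0578% of all, and Irs1 and Irs2 were among them. This pairing was noticed after the sequences were seen. The other element searched, the FoxO consensus core GTAAACA on both strands, was in 3.65% of all windows and in 0 of the 13 windows of the 7 members that had one. CACGTG was also present in 1 of the 6 windows of Sgk1 and in 1 of Bcl6. A match of letters is a description of the window and does not show that a factor was bound there.

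None of the 9 members differed between ICF and control past the threshold, an adjusted p of 0.05 in edgeR's quasi-likelihood test. In the same test 7.85% of all tested genes were called. At an unadjusted p under 0.05 in edgeR there were also 0 of 9 members, against 25.6% of all genes. The count was again 0 of 9 with DESeq2, which called 943 genes higher and 1109 lower, and with limma voom, which called 547 and 717. The labels give each donor number to 1 control and 1 ICF sample, and with this number as a block 29.9% of all genes passed, but again 0 of the 9 members. The log2 fold changes of the members ranged from -0.10 to 0.29 with a median of 0.02, beside a median of 0.0026 over all genes, whose middle 80% lay between -0.43 and 0.36. Differences below are log2 fold changes of ICF over control with their standard errors (SE), and the interval says how large a change the 3 samples per group leave possible.

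**Figure D1:**
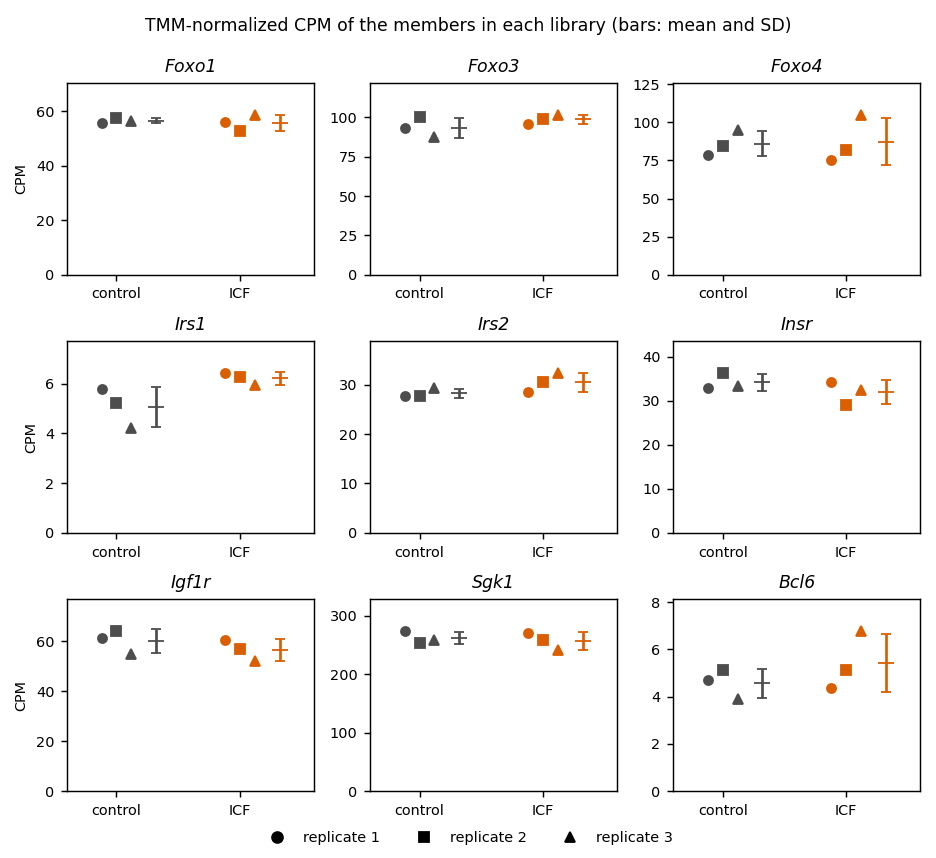
Level of each member in CPM after TMM normalization (y axis, from 0) in the 3 control and 3 ICF libraries. Symbols mark the replicate number, and bars give mean and SD. Irs1 alone had every ICF library above every control library, between 5.94 and 6.42 against 4.21 and 5.78 CPM.

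The 3 FoxO factors share a forkhead DNA-binding domain and recognise the same core sequence. Foxo1, on chromosome 3 of GRCm38 from 52268336 to 52353221, was at 55.8, 57.5 and 56.6 CPM in control replicates 1 to 3 and at 56.1, 52.8 and 58.7 CPM in ICF replicates 1 to 3. ICF replicate 1 lay inside the narrow control range, replicate 2 below it and replicate 3 above it. The difference was -0.02 with SE 0.05 (adjusted p = 0.89, edgeR, n = 3 per group), and its 95% interval from limma voom ran from -0.17 to 0.13, or from -11.1% to 9.23% of the control level. Foxo3, which is linked to longevity and stem cell quiescence, lies on chromosome 10 from 42181841 to 42276755. It was at 93.1, 99.97 and 87.3 CPM in the control and at 96.1, 98.7 and 101.5 CPM with ICF. The groups overlapped, since control replicate 2 was above ICF replicates 1 and 2. For Foxo3 the difference was 0.08 with SE 0.06 (edgeR adjusted p = 0.5), with an interval from -0.07 to 0.23. It was 0.03 without control replicate 3 and 0.13 without control replicate 2.

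Foxo4, the X-linked member of the family, lies on chromosome X from 101254528 to 101260873. Its level was 78.4, 84.6 and 95.2 CPM in control replicates 1 to 3 and 75.5, 81.5 and 104.7 CPM in ICF replicates 1 to 3. Replicate 3 was the highest and replicate 1 the lowest in each group, and the spread between replicates exceeded the difference between the groups. The Foxo4 difference was 0.02 with SE 0.16 (adjusted p = 0.94, edgeR), and its interval of -0.27 to 0.29 was the widest of the 3 factors. Without ICF replicate 3 it was -0.13 (adjusted p = 0.41, edgeR) and without control replicate 1 it was -0.05 (adjusted p = 0.9, edgeR), so leaving out either of these libraries turned its sign.

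Compared per kilobase of exon, Foxo4 had the highest mRNA level of the 3 factors and Foxo1 the lowest, in all 6 libraries. Its level was 24.7 ± 2.44 CPM per kilobase in control libraries and 25.0 ± 4.42 in ICF libraries (SD, n = 3 each). The levels of Foxo3 were 12.3 ± 0.84 and 13.0 ± 0.36, and those of Foxo1 were 6.53 ± 0.10 and 6.45 ± 0.34 CPM per kilobase (SD, n = 3). As a share of the 3 summed levels, Foxo4 made up 56.6% ± 3.12 without and 55.96% ± 3.48 with ICF (SD, n = 3 each). The share of Foxo3 was 28.4% ± 2.58 and 29.5% ± 2.42, and that of Foxo1 was 15.0% ± 0.60 and 14.6% ± 1.21 (SD, n = 3). The difference between groups in each share was smaller than the SD between replicates. The summed level of the 3 factors was 41.2, 44.1 and 45.4 CPM per kilobase in control replicates 1 to 3 and 40.8, 42.5 and 50.2 in ICF replicates 1 to 3.

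**Figure D2:**
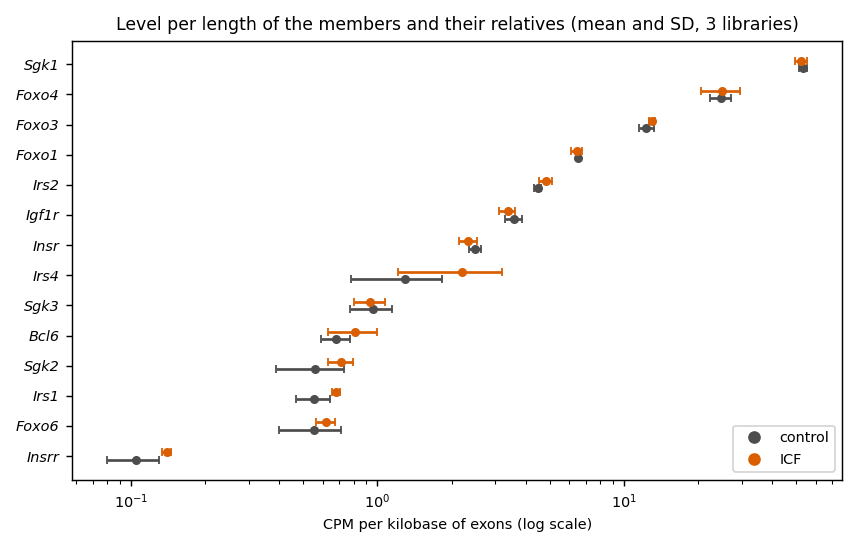
Mean and SD of the level per kilobase of exon (x axis, log scale, CPM per kilobase) of the 9 members and 5 relatives in 3 control and 3 ICF libraries. Sgk1 is at the top with 53.4 in the control, followed by Foxo4, Foxo3 and Foxo1, and Insrr is at the bottom with 0.11.

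The adaptors carry the signal from the receptor to PI3K. Irs1, on chromosome 1 from 82233101 to 82291416 on the reverse strand, had few counts, from 121 to 223 per library. Its level was 5.78, 5.21 and 4.21 CPM in control replicates 1 to 3 and 6.42, 6.26 and 5.94 CPM in ICF replicates 1 to 3. Every ICF library was above every control library, which was true, in either direction, of 31.4% of all tested genes (for Irs1, exact two-sided permutation p = 0.1, the lowest possible with 3 libraries a group). The Irs1 difference was 0.29 with SE 0.14, and its adjusted p of 0.25 in the edgeR test did not pass. It was 0.18 without control replicate 3, and between 0.27 and 0.40 with any other library left out. The interval from limma voom ran from -0.02 to 0.63, or -1.5% to 54.8%. With the replicate block the adjusted p of Irs1 was 0.087 (edgeR), and among tested genes 29.2% had a larger absolute log2 fold change.

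Irs2, on chromosome 8 from 10984681 to 11008458 on the reverse strand, was at 27.8, 27.7 and 29.3 CPM in the control and at 28.5, 30.5 and 32.3 CPM with ICF. The lowest ICF library, replicate 1, was below control replicate 3. The Irs2 difference was 0.11 with SE 0.06 (adjusted p = 0.42, edgeR), with an interval from -0.07 to 0.28. Without ICF replicate 3 it was 0.07. Per kilobase of exon, Irs2 was at 4.47 ± 0.14 and Irs1 at 0.55 ± 0.09 CPM per kilobase (SD, n = 3) in the control. Irs2 thus made up 88.96% ± 1.81 of the summed level of the pair in the control and 87.6% ± 1.10 with ICF (SD, n = 3). The share was lower with ICF in each same-numbered pair, while the groups overlapped. Of all 75-base stretches of the Irs1 transcript, 30.3% also occur in transcripts of other genes. Gm9747, a gene on the other strand, shares the most, and it had at most 1 count in a library. The strand setting of the counting is not given, so whether such reads were lost from Irs1 is not known.

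Insr and Igf1r encode the receptor tyrosine kinases for insulin and for IGF1. Insr, on chromosome 8 from 3122061 to 3279617 on the reverse strand, was at 32.9, 36.3 and 33.5 CPM in control replicates 1 to 3 and at 34.4, 29.1 and 32.6 CPM in ICF replicates 1 to 3. Replicate 2 was the highest of the control and the lowest of the ICF libraries. For Insr the difference was -0.10 with SE 0.08 (edgeR adjusted p = 0.52), with an interval from -0.30 to 0.10. It was -0.03 without ICF replicate 2, -0.05 without control replicate 2 and -0.15 without ICF replicate 1. Igf1r, on chromosome 7 from 67952827 to 68233668, was at 61.6, 64.1 and 54.9 CPM in the control and at 60.6, 57.1 and 52.1 CPM with ICF. Replicate 3 was the lowest in each group, and each ICF library was below the control library of its number, by -0.02, -0.17 and -0.08 on the log2 scale. The Igf1r difference was -0.09 with SE 0.09 (adjusted p = 0.55, edgeR), with an interval from -0.28 to 0.10. It was -0.03 without ICF replicate 3, -0.04 without control replicate 2, and -0.15 and -0.14 without control replicate 3 and ICF replicate 1. Igf1r made up 59.0% ± 1.61 of the summed receptor level per kilobase in the control and 59.1% ± 2.51 with ICF (SD, n = 3).

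Sgk1 encodes a kinase related to AKT that phosphorylates FoxO3 and is known to respond within hours to serum, glucocorticoids and osmotic stress. It lies on chromosome 10 from 21882184 to 21999903 and had the highest level of the members. Its level was 273 CPM in control replicate 1, 254 in replicate 2 and 257.7 in replicate 3. With ICF it was 270.6, 258.5 and 240.5 CPM in replicates 1 to 3. The groups overlapped, with control replicate 1 the highest and ICF replicate 3 the lowest library. Between the groups Sgk1 differed by -0.03 with SE 0.06 (edgeR adjusted p = 0.82), and the interval of -0.17 to 0.12 corresponds to -11.3% to 8.32%. Per kilobase of exon Sgk1 was at 53.4 ± 2.10 CPM per kilobase in the control and 52.3 ± 3.09 with ICF (SD, n = 3), above each of the other 8 members in every library.

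Bcl6 encodes a zinc finger repressor known from germinal centre B cells. It lies on chromosome 16 from 23965052 to 23988852 on the reverse strand and had 112 to 196 counts per library. Its level was 4.69, 5.11 and 3.90 CPM in control replicates 1 to 3 and 4.38, 5.15 and 6.77 CPM in ICF replicates 1 to 3. Replicate 3 was the lowest control library and the highest ICF library, while replicates 1 and 2 were close in both groups, with pair differences of -0.10 and 0.01 on the log2 scale against 0.79 for replicate 3. The Bcl6 difference was 0.24 with SE 0.21 (adjusted p = 0.46, edgeR), and its interval of -0.21 to 0.65 was the widest of the members. Without replicate 3 of both groups it was -0.044 (adjusted p = 0.83, edgeR), so the higher mean with ICF came from replicate 3.

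**Figure D3:**
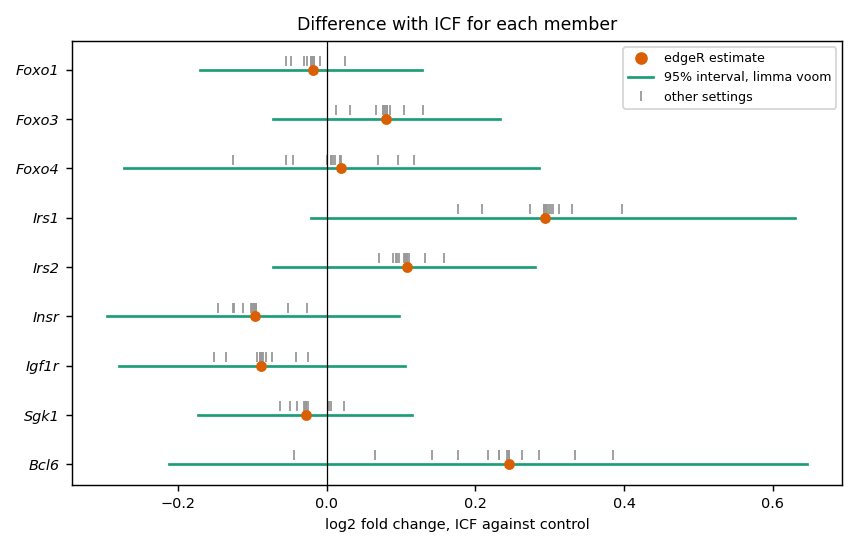
Log2 fold change of each member, ICF against control (x axis). Points are edgeR estimates, lines are 95% intervals from limma voom and ticks are the other settings. Every interval includes 0, and the estimates lie between -0.10 for Insr and 0.29 for Irs1.

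In the order of level per kilobase, Sgk1 led, followed by Foxo4, Foxo3, Foxo1, Irs2, Igf1r, Insr, Bcl6 and Irs1 in the control. The ranges of mean ± SD of neighbours in this order did not overlap, except those of Bcl6 at 0.68 ± 0.09 and Irs1 at 0.55 ± 0.09 CPM per kilobase (SD, n = 3). The place of Igf1r depended on the length used. It was at 3.58 ± 0.28 CPM per kilobase (SD, n = 3) with the union of exons, below Irs2, and at 5.28 with the longest transcript, above it.

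Of the relatives, Irs4 was at 1.30 and Sgk3 at 0.96 CPM per kilobase in the control, above Irs1. The place of Sgk3 depended on the length used. With the longest transcript Sgk3 was at 3.64 CPM per kilobase, near Insr at 3.66, while Irs4 stayed at 1.30. Sgk2 at 0.56 and Foxo6 at 0.55 CPM per kilobase were near the 0.55 of Irs1, and Insrr at 0.11 was lower. Foxo6, Insrr, Sgk2 and Sgk3 did not pass the threshold, with log2 fold changes between -0.04 and 0.40. Irs4, an X-linked adaptor of the same family, was at 5.92, 6.68 and 11.9 CPM in control replicates 1 to 3 and at 10.5, 10.1 and 21.1 CPM in ICF replicates 1 to 3. It was higher with ICF in each same-numbered pair, although control replicate 3 was above ICF replicates 1 and 2. For Irs4 the difference was 0.76 with SE 0.46 (adjusted p = 0.2, edgeR), and with the replicate block its adjusted p was 4.5e-07 (edgeR). Irs4 was the only one of the 5 relatives to pass with the block, next to 29.9% of all genes. With DESeq2, with limma voom or at an unadjusted p under 0.05, 0 of the 5 passed.

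Around the members, 116 further genes of the pathway were examined in 7 lists, and 108 of them were tested. Of these, 5 rose and 8 fell with ICF, next to 3.47% of all genes that rose and 4.38% that fell, and the median log2 fold change was -0.0067. With the replicate block 21 rose and 25 fell, next to 29.9% of all genes called in either direction. Without control replicate 1 or control replicate 2, 0 rose and 4 fell. Leaving out control replicate 3 gave 8 and 13 instead. Leaving out ICF replicate 1 gave 1 and 5, ICF replicate 2 gave 3 and 5, and ICF replicate 3 gave 5 and 8. The lists hold known pathway genes and were not tested as sets.

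Among ligands and their binding proteins, 9 of 12 genes were tested and 1 fell, next to 4.38% of all genes. Ins1, an insulin gene, had 0 counts in all 6 libraries, which allows at most 3 counts or 0.0864 to 0.104 CPM per library, and Ins2 had 0 to 2 counts. The ligand Igf2 was abundant, at 484, 520.2 and 688 CPM in control replicates 1 to 3 and at 452, 474 and 789.9 CPM in ICF replicates 1 to 3. Replicate 3 was the highest in each group, and the groups differed by 0.02 (adjusted p = 0.97, edgeR). Igfbp2, a secreted protein that binds IGFs, fell from 600.3, 547 and 378 CPM in the control to 197, 225 and 202 CPM with ICF. All ICF libraries were below all control libraries, and in 31.4% of all tested genes the groups did not overlap. Igfbp2 fell by 1.29 on the log2 scale, with SE 0.21 (adjusted p = 0.0022, edgeR), and it passed under all 15 other settings.

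Of 11 tested PI3K subunits and adaptors 0 passed, next to 7.85% of all tested genes. At an unadjusted p under 0.05 in edgeR there was 1, next to 25.6% of all genes. DESeq2 called 1 higher, next to 943 of 16729 genes, and limma voom called 0. With the block 3 were higher and 1 lower, next to 29.9% of all genes called in either direction. Pik3ca, the catalytic subunit p110 alpha, was at 60.5, 63.2 and 60.6 CPM in the control and at 61.3, 56.3 and 57.8 CPM with ICF, with an adjusted p of 0.52 (edgeR). Of 18 AKT and mTOR genes, 1 passed, next to 7.85% of all tested genes. Deptor, an inhibitory subunit of the mTOR complexes, fell from 56.3, 59.9 and 58.5 CPM to 48.0, 45.2 and 49.6 CPM, a difference of -0.29 with SE 0.05 (adjusted p = 0.032, edgeR). The log2 fold changes of Akt1 and Akt2 were 0.05 and -0.03, and neither passed. With the block 2 genes of this list rose and 3 fell, next to 29.9% of all genes called in either direction.

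Of 19 inhibitors of the pathway, 16 had a lower mean with ICF, while 50.4% of all tested genes had a log2 fold change above 0. Past the threshold 2 fell, next to 4.38% of all genes, and 0 rose. The median log2 fold change was -0.16. With the replicate block 7 fell and 1 rose, next to 29.9% of all genes called in either direction. Inppl1, the lipid phosphatase SHIP2, fell from 114, 118 and 113 CPM to 94.7, 93.6 and 92.1 CPM in replicates 1 to 3. The Inppl1 difference was -0.30 with SE 0.02 (adjusted p = 0.014, edgeR). Grb10, an imprinted adaptor that binds and restrains the insulin and IGF1 receptors, fell from 486, 487 and 456 CPM to 408, 399 and 350.3 CPM, also by 0.30 on the log2 scale (SE 0.08, adjusted p = 0.038, edgeR). For each of these genes no control library overlapped an ICF library, as for 31.4% of all tested genes. The calls of Deptor, Inppl1 and Grb10 were lost when control replicate 1, control replicate 2, ICF replicate 1 or ICF replicate 2 was left out, with adjusted p-values from 0.056 to 0.17 (edgeR).

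**Figure D4:**
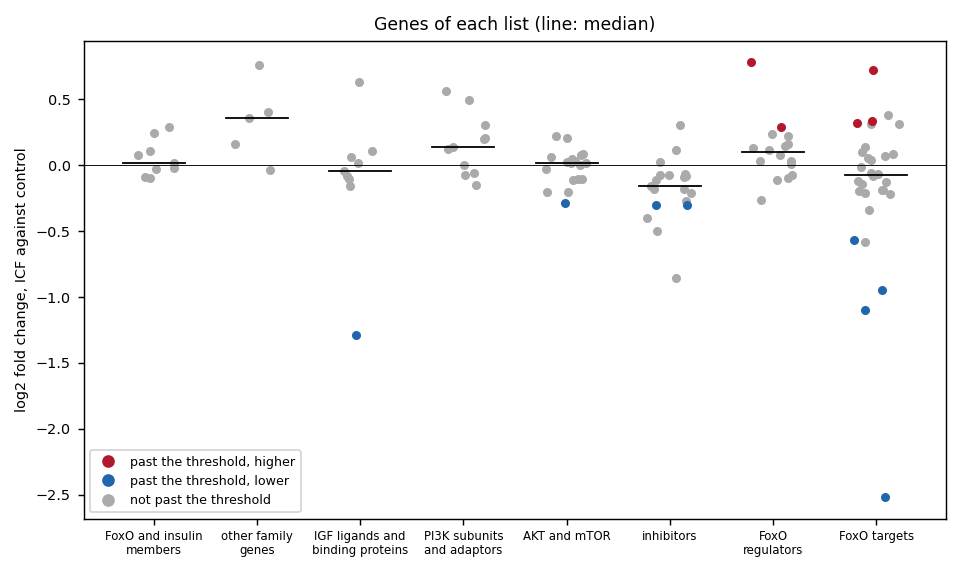
Log2 fold change, ICF against control (y axis), of each tested gene of the members and of 7 pathway lists. Colour marks genes past the threshold and lines are medians, which lie between -0.16 for the inhibitors and 0.35 for the other family genes. The members stay between -0.10 and 0.29, and the FoxO targets reach from -2.52 to 0.72.

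Among 16 proteins that act on FoxO factors, 2 rose and 0 fell, next to 3.47% of all genes that rose and 4.38% that fell. Mdm2, a ubiquitin ligase for p53 and for FoxO factors, rose from 108, 119 and 145 to 186, 177 and 274 CPM, a difference of 0.78 with SE 0.24 (adjusted p = 0.03, edgeR). Nlk, a kinase known to phosphorylate FoxO1, rose by 0.29 on the log2 scale with an adjusted p of 0.047 (edgeR), and it did not pass with limma voom (0.0504). With the block 7 of the 16 were higher and 1 lower, next to 29.9% of all genes called in either direction. Sirt1, a deacetylase of FoxO factors, had a log2 fold change of 0.22 and an adjusted p of 0.29 (edgeR), which was 0.0026 with the block (edgeR).

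Of 34 genes known as targets of FoxO factors, 30 were tested. Past the threshold 3 rose and 4 fell, next to 3.47% of all genes that rose and 4.38% that fell. Over the 30 tested targets the median was -0.08 on the log2 scale. With the block 6 rose and 12 fell, next to 29.9% of all genes called in either direction. Several of the 34 are also known targets of other factors, Cdkn1a, Bbc3 and Sesn1 of p53 and Bnip3 of HIF-1. Bnip3, a mitophagy receptor, fell most, from 257, 247 and 182 CPM to 38.3, 37.4 and 44.5 CPM, a difference of -2.52 with SE 0.18 (adjusted p = 0.00013, edgeR). Ccng2, an unconventional cyclin linked to cell cycle exit, fell from 43.7, 45.0 and 40.2 CPM to 20.8, 19.4 and 20.02 CPM, a difference of -1.10 with SE 0.06 (adjusted p = 0.00031, edgeR). Both fell in all 3 same-numbered pairs with no overlap between groups, and 31.4% of all tested genes had no overlap.

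Pdk4, the pyruvate dehydrogenase kinase induced by fasting, fell from 9.44, 9.10 and 7.62 CPM to 5.01, 4.78 and 3.73 CPM (difference -0.95, SE 0.16, adjusted p = 0.0091, edgeR). Sesn3, a sestrin that restrains mTORC1, rose from 51.5, 54.1 and 50.1 CPM to 66.3, 65.7 and 62.4 CPM (difference 0.32, SE 0.04, adjusted p = 0.019, edgeR). The D-type cyclins, which FoxO factors are known to repress, moved in opposite directions. Ccnd2 fell from 74.5, 78.9 and 63.2 CPM to 48.6, 48.1 and 49.2 CPM, a difference of -0.57 with SE 0.10 (adjusted p = 0.0064, edgeR). Ccnd1 rose by 0.33 on the log2 scale and the CDK inhibitor gene Cdkn1a by 0.72 (adjusted p = 0.016 and 0.031, edgeR).

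Other targets did not pass in the test without a block. Cdkn1b, the CDK inhibitor p27, was at 87.5, 90.9 and 84.6 CPM in the control and at 79.9, 76.7 and 85.2 CPM with ICF (adjusted p = 0.28, edgeR). Sod2 and Cat, enzymes of antioxidant defence, had log2 fold changes of 0.14 and -0.14 with adjusted p-values of 0.26 and 0.15 (edgeR). With the block these p-values were 0.035 and 0.029 (edgeR), and 29.9% of all genes passed. The gluconeogenic targets Pck1 and G6pc had at most 14 counts and 1 count in a library and were not tested. The calls of Bnip3, Ccng2 and Ccnd2 held under all 15 other settings. Those of Pdk4 and Cdkn1a were lost without control replicate 1 or 2 (adjusted p from 0.056 to 0.14, edgeR), Ccnd1 and Mdm2 also without ICF replicate 1, and Sesn3 without any of these or ICF replicate 2, with adjusted p-values from 0.052 to 0.13 (edgeR). Nlk was lost without any library except control replicate 3.

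**Figure D5:**
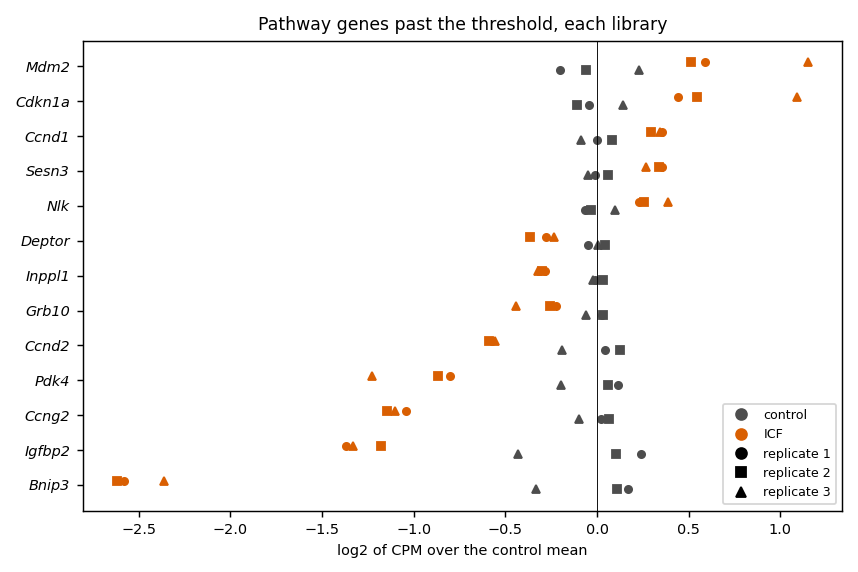
Each library's level as log2 of CPM over the control mean (x axis) for the 13 pathway genes past the threshold, with symbols for the replicate number. In every gene all ICF libraries lie on one side of all control libraries, with Bnip3 lowest and Mdm2 highest. The genes were chosen by a test on these same libraries, which favours such separation, and 31.4% of all tested genes show it.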

How the data were processed

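Strand-specific mRNA libraries of 3 ICF and 3 control samples were sequenced as single 75-base reads. Reads were trimmed with Trimmomatic and aligned by HISAT2, and the authors' HTSeq read counts per gene were deposited without normalization. Versions and the strand setting of the counting are not given in the sources used here. The submitters' notes name GRCm38 beside a human build. HTSeq drops reads that map to several places. Its 5 summary entries, which name no gene, were left out; reads with several alignments were 29.5% to 31.3% of each library's total.

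Genes were named by GENCODE M21 (GRCm38), which held 50376 of 50686 identifiers. Counts were tested with edgeR 4.0.16 in R 4.3.3 (quasi-likelihood test, TMM, filterByExpr, Benjamini-Hochberg over 16729 genes, threshold 0.05), without a block. CPM are TMM-scaled, and means and SDs are over 3 samples. Standard errors come from the spread of log2 CPM (prior count 2). Where nothing else is named, 95% intervals come from limma voom (limma 3.58.1), added after the data were seen. The count floor is 3 reads and covers counting error only. The procedure was tested on simulated data.

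The members and lists were chosen with earlier results of these data known. Named genes are all members and relatives and, per list and direction, up to 4 called genes with at least 50 mean counts, unless said otherwise. Donor numbers in the labels pair the samples, and across genes the residuals of samples sharing a number had r of 0.15, 0.2 and 0.38, while unmatched samples had r of -0.34 to 0.26, so that replicates 1 and 2 were not told apart by this check. The study's text speaks of independent experiments and names no donors, so the p-values may measure the spread between cultures. Alternatives were DESeq2 1.42.0, RLE factors, looser and stricter filters, the block with each tool, each sample or replicate 3 left out, and ICF replicate 3 divided by 4. Some pathway genes are not reported here.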

Additional observations from a re-analysis of the deposited data

How the results depend on the processing

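Under all 15 alternatives, 0 of the 9 members passed the threshold in either direction. The sign of a member's log2 fold change turned in 8 cases. For Foxo1 it was 0.025 without ICF replicate 2 (-0.048 to 0.025 over the samples left out in turn). For Foxo4 it was -0.05 without control replicate 1, -0.13 without ICF replicate 3 and -0.055 without replicate 3 of both groups (-0.13 to 0.12 over single samples). For Sgk1 it was 0.0035, 0.023 and 0.0053 under the same settings (-0.063 to 0.023). For Bcl6 it was -0.044 without replicate 3 of both groups. The counts of called genes moved more. Over all genes, 943 rose and 1109 fell with DESeq2, 2445 and 2561 with the replicate block, 1465 and 1661 with the block in DESeq2, and 2466 and 2627 without replicate 3 of both groups, against 580 and 733 in the report. Leaving out 1 sample gave 85 to 724 that rose and 215 to 928 that fell. Of the pathway genes, 9 rose with DESeq2 and with the looser filter. With the block 21 rose and 25 fell, with the block in DESeq2 15 and 18, and without replicate 3 of both groups 18 and 27. Leaving out 1 sample gave 0 to 8 that rose, with 0 without control replicate 1 or 2, and 4 to 13 that fell. The cause of these shifts was not tested. At the low counts of Irs1 and Bcl6 the intervals reach 54.8% and 56.6%, and the counts of ICF replicate 3 are coarser still. The replicate block changed no call of a member. Level per kilobase moved with the longest transcript for all members but Foxo1, Irs1 and Irs2. The insulin response element core was found on the reverse strand alone, so the count of 2 member promoters was 0 on the forward strand.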
